A study of Mus musculus with 4 samples.

Results

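Gene deserts are long stretches of the genome without protein-coding genes. Accessible chromatin within them was taken from ATAC-Seq peak lists of mouse blood stem cells. Overlapping peaks of 4 libraries on the autosomes and X were merged at 1 bp of overlap, and 137553 union regions held a peak in at least 2 libraries. Of these, 3371 regions (2.45%) lay at least 200 kb from the body of the nearest protein-coding gene and were taken as desert regions. Another 9573 such regions had a peak in 1 library only and were left out, which was 74.0% of the 12944 seen in any library, against 59.3% of all 337776 union regions.

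The libraries came from sorted bone marrow cells, which the labels call long-term HSCs (ltHSC) and the study's text HSPCs, and the cells were cryopreserved after the sort. There were 2 control libraries, labelled WT and described in the study as Cpt1a fl/fl, and 2 libraries of Cpt1a-KO mice, in which Vav1-Cre removed the floxed gene throughout the blood lineage and not in stem cells alone. Both genotypes were adult mice of a C57BL/6 background, of either sex, with no treatment named. ATAC-Seq cuts open DNA with a transposase, and a peak is a stretch where such cuts pile up over the local background of the same library. The labels do not say whether the 2 libraries of a genotype came from separate animals, so any p-value covers only the spread between these libraries.

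The lists held 240881 to 277531 summits on the autosomes and X, with KO 2 the shortest, and no read counts, so depth is unknown. Peaks in deserts were also narrower in the KO lists, with medians of 110 and 117 bp against 140 and 151 bp in the control lists. The medians over all peaks of each list were not taken, so whether this is particular to deserts was not tested. Cpt1a itself, the targeted gene, held 33 summits in each control library and 26 and 25 in the KO libraries, which is no check of a deleted exon. Every one of 10 stem cell marker genes had a strong peak (−log10 q from 5 up) within 5000 bp in all 4 libraries, but so did 3 of 4 genes of non-blood tissues, 3 of 4 B cell genes, 2 of 4 T cell genes, 3 of 4 neutrophil genes, 3 of 4 red cell genes and 3 of 3 platelet genes, so peaks near genes did not separate cell types here.

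Regulatory DNA can act on a gene from a great distance, when the chromatin between them folds into a loop. Genes for transcription factors often stand beside deserts that hold many enhancers, and Runx1, Myc and Bcl11a are known examples in blood cells. Deserts also hold genes for long noncoding RNAs (lncRNAs), some of which are host to miRNAs, and the segments from which antigen receptors are assembled.

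A gene for a noncoding RNA can place a promoter inside a desert. Of the desert regions, 57 (1.69%) overlapped a promoter window, the 250 bases before to 50 after a gene's start, and all 56 genes concerned were lncRNA genes. A peak in all 4 libraries was seen at 39 of these regions (68.4%), against 58.4% of all union regions. Their median width was 401 bp, against 262 bp over all desert regions and 330 bp over all union regions. The part of width in this share was not tested. Windows of 4 genes are shown because their regions were among the strongest, and because the last 2 lie in the desert from Bcl11a to Fancl and in the host gene of a miRNA cluster. They come from RefSeq (GRCm38.p6, the same assembly as mm10) and are written 5′ to 3′ on the gene's strand, with capitals for letters that match a searched motif. The Firre window is chrX:50635272-50635571 on the minus strand, the Gm26901 window chr1:7398047-7398346 on the minus strand, the Gm12069 window chr11:25300813-25301112 on the plus strand and the Mir100hg window chr9:41474643-41474942 on the plus strand. The Mir100hg window lies inside its gene (chr9:41376526-41615185) and not at the gene's outer start.
Firre: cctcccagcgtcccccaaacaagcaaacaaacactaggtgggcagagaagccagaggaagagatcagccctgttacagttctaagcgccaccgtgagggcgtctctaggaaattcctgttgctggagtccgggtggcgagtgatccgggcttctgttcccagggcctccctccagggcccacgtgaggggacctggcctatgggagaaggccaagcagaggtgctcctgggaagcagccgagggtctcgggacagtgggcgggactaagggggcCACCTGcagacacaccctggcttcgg
Gm26901: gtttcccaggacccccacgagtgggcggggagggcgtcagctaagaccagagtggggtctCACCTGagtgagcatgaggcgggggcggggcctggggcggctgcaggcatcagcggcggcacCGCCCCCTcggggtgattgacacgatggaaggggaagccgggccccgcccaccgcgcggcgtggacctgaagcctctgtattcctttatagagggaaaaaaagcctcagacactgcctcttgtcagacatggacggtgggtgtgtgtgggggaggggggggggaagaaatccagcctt
Gm12069: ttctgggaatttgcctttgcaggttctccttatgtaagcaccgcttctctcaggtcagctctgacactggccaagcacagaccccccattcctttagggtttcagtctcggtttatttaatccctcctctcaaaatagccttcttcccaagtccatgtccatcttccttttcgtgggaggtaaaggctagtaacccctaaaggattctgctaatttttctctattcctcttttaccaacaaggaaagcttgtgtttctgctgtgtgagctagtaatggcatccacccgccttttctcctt
Mir100hg: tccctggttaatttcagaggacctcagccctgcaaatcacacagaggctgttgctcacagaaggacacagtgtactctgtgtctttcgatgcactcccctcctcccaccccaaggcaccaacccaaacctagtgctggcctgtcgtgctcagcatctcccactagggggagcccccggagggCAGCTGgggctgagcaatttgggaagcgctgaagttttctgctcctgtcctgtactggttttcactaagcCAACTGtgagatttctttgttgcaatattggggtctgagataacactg

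The 7 motifs searched on both strands were AGGGGGCG for CTCF, GAGGAAGT for PU.1, TGTGGTT for RUNX, AGATAAG for the GATA family, TGANTCA for AP-1, TTGCNNAA for C/EBP and CAGNTG for the E-box. The Firre window held 1 E-box match, the Gm26901 window 1 CTCF and 1 E-box match, and the Mir100hg window 2 E-box matches, while none of these letters stood in the Gm12069 window. Over the 61 windows at desert regions, 7 (11.5%) held the PU.1 letters against 3.20% of all 32851 windows, 7 (11.5%) the RUNX letters against 5.27%, and 9 (14.8%) the AP-1 letters against 7.81%. The E-box was as common in both, at 50.8% and 51.4%. CTCF letters stood in 2 windows (3.28% against 6.07%), GATA letters in 2 (3.28% against 3.04%) and C/EBP letters in 9 (14.8% against 10.8%). The 61 windows were picked for overlap with a peak in these cells, and all belong to lncRNA genes. The 32851 windows were limited neither to those with a peak nor to lncRNA genes. These shares therefore do not show a trait of deserts. A match is a description of the letters, not a bound site.

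Firre, a nuclear lncRNA gene of the X chromosome, had the strongest region over a promoter. The fold, the authors' ratio of the summit to its local background, was 21.5 and 16.5 there in control 1 and 2 and 22.9 and 18.5 in KO 1 and 2, so that the genotypes overlapped. At the Gm26901 promoter, the folds were 16.2 and 15.8 in control and 13.3 and 14.3 in KO, so both KO values lay below both control values. By the place of the fold within its own list, this order held at 22.9% of all union regions in all 4 libraries. At the Gm12069 promoter, 1085437 bp from the nearer gene Fancl, they were 11.0 and 13.0 in control and 16.6 and 12.2 in KO, and again overlapped. Mir100hg showed 15.6 and 11.3 in control and 12.5 and 10.3 in KO.

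Mir100hg is the host gene of miRNAs that are known from blood stem cells, and it held 7 desert regions, 4 of them in all 4 libraries. Peaks were called at 6 and 5 of the 7 in control and at 6 and 6 in KO. Mature sequences of its miRNAs from RefSeq are shown with the seed, bases 2 to 8, in capitals. No seed is shared by the 2 arms shown, and the libraries measure DNA, not the level of a miRNA. Both lie on the plus strand, miR-100-5p at chr9:41531437-41531458 and miR-125b-5p at chr9:41581940-41581961.
mmu-miR-100-5p: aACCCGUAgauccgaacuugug
mmu-miR-125b-5p: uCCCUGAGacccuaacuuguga

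Desert regions were spread very unevenly. The part of the genome at least 200 kb from every protein-coding gene, between 2 genes, came to 492 Mb (19.2% of the span from the first to the last gene of each chromosome) in 793 gene-free intervals. It held 6.74 regions per Mb, against 64.6 per Mb in the rest, a 9.58-fold lower density. No region was found in 317 intervals (115 Mb in all), of which the longest stretch, 2.75 Mb, lay between the cadherin genes Cdh2 and Dsc3. By contrast, 99 intervals with 10 or more regions held 60.9% of all desert regions. Per chromosome, the density ran from 1.68 per Mb on X to 13.6 per Mb on chromosome 13.

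**Figure D1:**
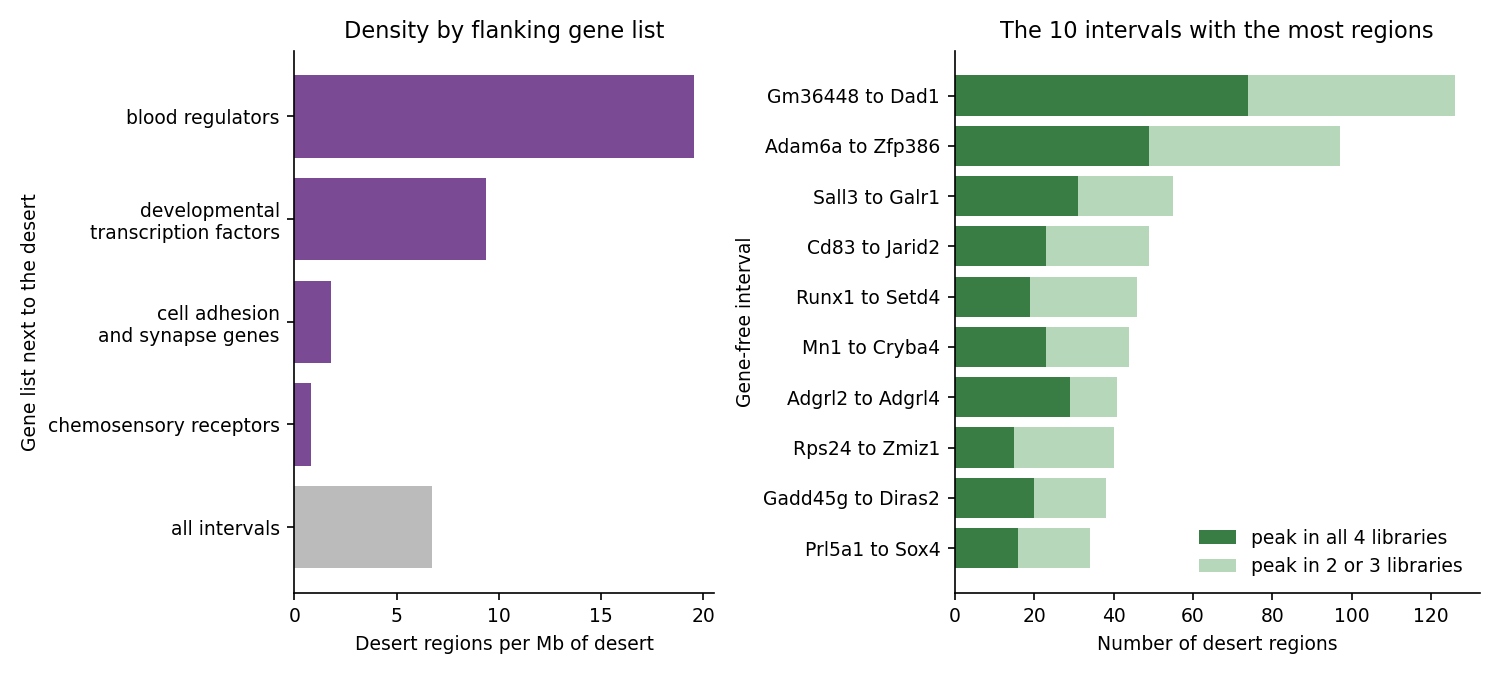
Left, desert regions per Mb of sequence at least 200 kb from a protein-coding gene, for intervals next to a gene of each list and for all intervals. Right, the 10 gene-free intervals with the most desert regions, with the count in all 4 libraries in dark green and the count in 2 or 3 libraries in light green. Density was 19.6 per Mb beside blood regulators and 6.74 per Mb over all intervals, and the 2 fullest intervals were antigen receptor loci with 126 and 97 regions.

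The 2 fullest intervals go against the name of a desert. The interval from Gm36448 to Dad1 on chromosome 14 is the T cell receptor alpha locus, and that from Adam6a to Zfp386 on chromosome 12 is the immunoglobulin heavy chain locus. Their receptor segments are annotated apart from protein-coding genes, and all 126 and all 97 desert regions there overlapped a segment or locus record. A record over a whole locus was enough for this, so the overlap does not place a peak at a segment. In the T cell receptor alpha locus, peaks were called at 115 and 111 regions in control and at 105 and 90 in KO, so both KO counts were below both control counts. The same order held over all union regions, of which 86.4% and 85.1% had a peak in control and 82.9% and 78.3% in KO. Of the 126 regions of the locus, 74 were in all 4 libraries, close to the 58.4% of all union regions. Another 15 had a peak in both control libraries and in neither KO library (only in control), and 5 had the converse (only in KO), against 6.05% and 3.47% of all union regions. In the immunoglobulin locus, 76 and 84 of 97 regions had a peak in control and 80 and 79 in KO, which overlap, with 7 only in control and 4 only in KO. Without both loci, 3148 desert regions remained. The controls alone held 192 of them (6.1%, against 6.05% of all union regions) and the KO libraries alone 177 (5.62%, against 3.47%).

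Of all desert regions, 2391 (70.9%) overlapped no gene record, 696 (20.6%) an lncRNA gene, 232 (6.88%) a receptor segment or locus record, 47 a pseudogene and 5 a small RNA or tRNA. Noncoding records were rarely far away, since 110 regions (3.26%) had no record of any kind within 200 kb. Desert regions lay in 327 lncRNA genes, of which 31 held 5 or more. The most, 29 regions, lay in 2610307P16Rik beside Sox4, with peaks at 22 and 18 of them in control and 21 and 25 in KO. Next was Gm30382 between Adgrl2 and Adgrl4, which had 24 regions with peaks at 23 and 21 in control and 23 and 18 in KO. Lncpint, an lncRNA gene linked to the p53 response, had 13 regions with peaks at 12 and 12 in control and 8 and 11 in KO. Both KO counts were lower, as over all union regions.

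To find the strongest desert regions, regions were ranked by the lowest of their 4 percentiles, each the place of the region's fold within its own list. The first lay between Pcdh7, a protocadherin gene, and G6pd2 at chr5:60042725-60043117, 1765725 bp from the nearer gene. Its fold was 47.9 and 49.2 in control and 48.2 and 45.6 in KO, which overlap. The second, between Flrt2 and Galc (chr12:97061435-97061823), had folds of 51.0 and 46.3 in control and 45.7 and 43.3 in KO, so both KO values were lower. The third, between Ptprd and Tyrp1 (chr4:80002735-80003020), had 44.4 and 47.2 in control and 46.6 and 43.9 in KO. These 3 regions were 286 to 393 bp wide and stood clear of the next 6 described, where the highest fold was 35.0. No filter for repeated sequence or read mapping was applied here. Whether such folds reflect open chromatin or the mapping of reads was not tested.

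Of these 6, the region between Nxph1 and Ndufa4 had folds of 25.0 and 28.2 in control and 25.4 and 35.0 in KO. A further region of 134 bp beside Ptprd, close to the third, had 21.8 and 20.6 in control and 20.9 and 20.9 in KO. Between Manea and Epha7, a receptor gene of axon guidance, the folds were 22.1 and 19.9 in control and 22.2 and 24.4 in KO, so both KO values were higher, 1 of them narrowly. The last 3 lay between Tmem167 and Atp6ap1l, Kcnrg and Dleu7, and Mmadhc and Rnd3, and their folds ran from 17.0 to 23.7. In the first of these, both KO folds (19.2 and 17.4) were below both control folds (21.6 and 19.6), and in the other 2 the genotypes overlapped. Such order is common: by percentile of fold, both KO libraries were higher at 14.8% of all union regions in all 4 libraries and lower at 22.9%.

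**Figure D2:**
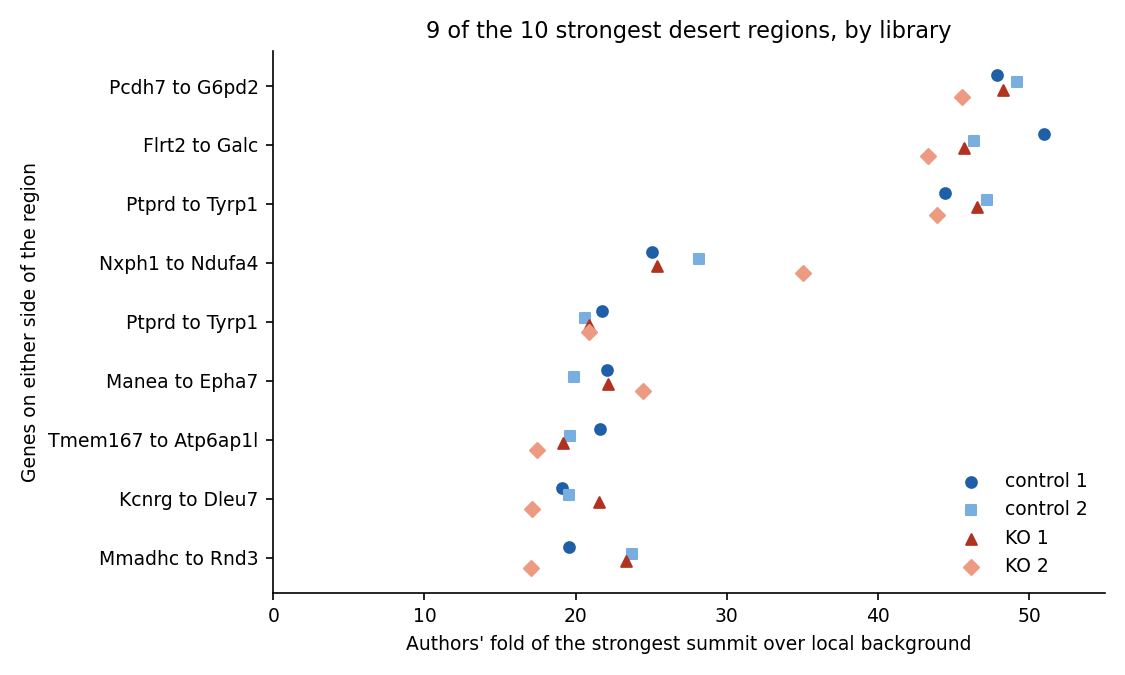
The authors' fold over local background at 9 of the 10 strongest desert regions, 1 row per region named by the genes on either side, with 1 point per library. The first 3 regions have folds between 43.3 and 51.0 in every library, and the other 6 reach at most 35.0, with control and KO points mixed in 6 of 9 rows. By percentile of fold, both KO libraries were above both controls at 14.8% of all union regions in all 4 libraries and below at 22.9%.

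The region farthest from any protein-coding gene lay 2137496 bp away, between Cntnap5b, a neurexin family gene, and Cdh20 (chr1:102628096-102628362). Its fold was 25.0 and 27.6 in control and 17.6 and 13.4 in KO, so both KO values were lower. By percentile of fold, this order held at 22.9% of all union regions in all 4 libraries. At the limit of 200 kb, the 3 regions just inside lay 200017 bp (Zc3h12c to AI593442), 200023 bp (Dusp10 to Hlx) and 200114 bp (Bckdhb to Tent5a) from a gene, with folds of 2.56 to 5.34. The 3 just outside lay 199767 bp (Tex29 to A230072I06Rik), 199789 bp (Rnd3 to Tas2r134) and 199958 bp (Sox9 to Slc39a11) away, with folds of 2.67 to 6.82.

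Deserts beside regulators of blood cells were the most densely filled of the gene lists. A list of 60 blood regulators flanked 29 intervals, of which 26 held 384 regions, or 19.6 per Mb against 6.74 per Mb over all intervals. Intervals beside developmental transcription factors held 209 regions (9.38 per Mb), those beside cell adhesion and synapse genes 197 (1.81 per Mb) and those beside chemosensory receptors 2 (0.815 per Mb). An interval can count under more than 1 list, as the one beside Sox4 does. Of the regions beside blood regulators, 46.6% were in all 4 libraries, against 50.1% of all desert regions.

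Runx1, a transcription factor required for blood stem cells to form, had the most of the blood regulators, with 46 regions in the interval up to Setd4 on chromosome 16. Peaks were called at 40 and 38 of these in control and at 34 and 31 in KO, so both KO counts were lower, as over all union regions. The controls alone held 4 of the 46 and the KO libraries alone 1, against the shares of 6.05% and 3.47% over all union regions. The strongest of them (chr16:93028377-93029125) had folds of 14.9 and 15.3 in control and 12.9 and 16.7 in KO, which overlap. Sox4, a transcription factor of lymphoid and stem cells, had 34 regions up to Prl5a1, with peaks at 26 and 23 in control and 26 and 28 in KO. Id2, an inhibitor of E proteins, had 34 up to Rnf144a, with 28 and 23 in control and 29 and 30 in KO, where both KO counts were higher. The KO libraries alone held 4 of these 34 and the controls alone 1, against 3.47% and 6.05% of all union regions, and counts this small were not tested.

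Zeb2, a zinc finger repressor, bordered the longest of these deserts (3.70 Mb, up to Acvr2a) with 33 regions, and peaks at 27 and 27 in control and 25 and 24 in KO. The desert from Bcl11a, the repressor of fetal globin, to Fancl held 30 regions with peaks at 27 and 26 in control and 22 and 22 in KO, with 2 only in control and 0 only in KO. Klf4, a factor of monocytes and of pluripotent cells, had 25 regions with peaks at 24 and 22 in control and 23 and 16 in KO. Meis1, a homeobox factor of stem cells, had 19 regions up to Spred2, with peaks at 16 and 16 in control and 15 and 16 in KO.

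The last 3 of these 10 intervals were at Tox, Gata3 and Myc. Tox, a factor of T cells and innate lymphoid cells, had 17 regions with peaks at 14 and 14 in control and 13 and 12 in KO. Both KO counts were lower, as over all union regions. Gata3, the factor of T helper cells, had 16 regions, and its strongest (chr2:9593693-9594645) was the strongest of all 10 intervals, at 18.3 and 18.3 in control and 17.2 and 17.5 in KO. Beside Myc, the regulator of growth and division, 16 regions up to Gsdmc had peaks at 9 and 12 in control and 10 and 12 in KO, and 4 were in all 4 libraries. Which of these genes, if any, a desert region acts on was not measured.

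Other full intervals lay beside genes outside the list. Sall3 to Galr1 held 55 regions with peaks at 45 and 44 in control and 49 and 44 in KO. Cd83, a surface protein of dendritic cells, and Jarid2, a partner of the Polycomb repressive complex, enclosed 49 with peaks at 44 and 42 in control and 41 and 29 in KO. Both KO counts were lower there, as over all union regions. Mn1, a gene rearranged in leukemia, and Cryba4 enclosed 44, with 38 and 32 in control and 35 and 35 in KO. Between the adhesion receptor genes Adgrl2 and Adgrl4 lay 41, with 40 and 37 in control and 37 and 31 in KO. Rps24 to Zmiz1 held 40, with 35 and 29 in control and 32 and 23 in KO, and Gadd45g to Diras2 held 38, with 30 and 34 in control and 31 and 27 in KO. Held by the controls alone and by the KO libraries alone were 3 and 3 regions at Sall3, 3 and 0 at Cd83, 2 and 3 at Mn1, 4 and 0 at Adgrl2, 4 and 0 at Rps24 and 5 and 1 at Gadd45g. Against shares of 6.05% and 3.47% over all union regions, these counts are small, and they were not tested.

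Desert regions came in groups. With neighbours joined at gaps of up to 20 kb, 337 clusters of 3 or more held 1803 regions (53.5%), and 35 clusters held 10 or more, while 998 regions (29.6%) stood alone. Clustered regions were wider than lone ones (median 285 against 214.5 bp) and were in all 4 libraries at 50.6% against 48.1%.

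The largest cluster held 29 regions over 159 kb between Mn1 and Cryba4 (chr5:111657702-111816591). Peaks were called at 24 and 19 of them in control and at 22 and 22 in KO, and 12 were in all 4 libraries. Of the next 5 clusters, 3 lay in the T cell receptor alpha locus and held 23, 22 and 17 regions. A cluster of 19 lay at the very start of the mapped sequence of chromosome 9 (from 3002019 to 3034451), before Alkbh8, with peaks at 16 and 16 in control and 12 and 17 in KO. Repeated sequence and read mapping were not checked there. The other, of 17 regions over 89.6 kb, lay between Tle3, a corepressor of the Groucho family, and Rplp1 (chr9:61618692-61708251) and had 13 regions in all 4 libraries, with peaks at 17 and 16 in control and 16 and 13 in KO.

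Desert regions were shared by all libraries less often than regions near genes. A peak in all 4 libraries was found at 1689 of 3371 (50.1%, Wilson 95% interval 48.42 to 51.79, for counting error only), against 58.4% of all union regions. The share was 60.1% within genes, 56.8% up to 5 kb from one, 57.0% at 5 to 50 kb, 53.4% at 50 to 200 kb, 49.7% at 200 to 500 kb and 52.2% at 500 kb and over. Width went with it. The median desert region was 262 bp wide, against 330 bp over all regions, and 35.8% were under 200 bp, against 26.7%. Within a class of width the shares were alike, at 20.6% and 20.2% under 200 bp, 48.5% and 47.8% at 200 to 400 bp, 86.5% and 86.9% at 400 to 800 bp and 98.5% and 99.5% from 800 bp.

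Desert peaks were also weaker. The median fold was 3.90 and 4.15 in control and 3.91 and 4.07 in KO, against 4.30 and 4.45 and 4.27 and 4.36 over all regions. Of desert regions in all 4 libraries, 5.45% and 5.45% in control and 5.39% and 4.20% in KO were in the top 5% of their list by fold, against 11.6% to 13.2% of all such regions.

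**Figure D3:**
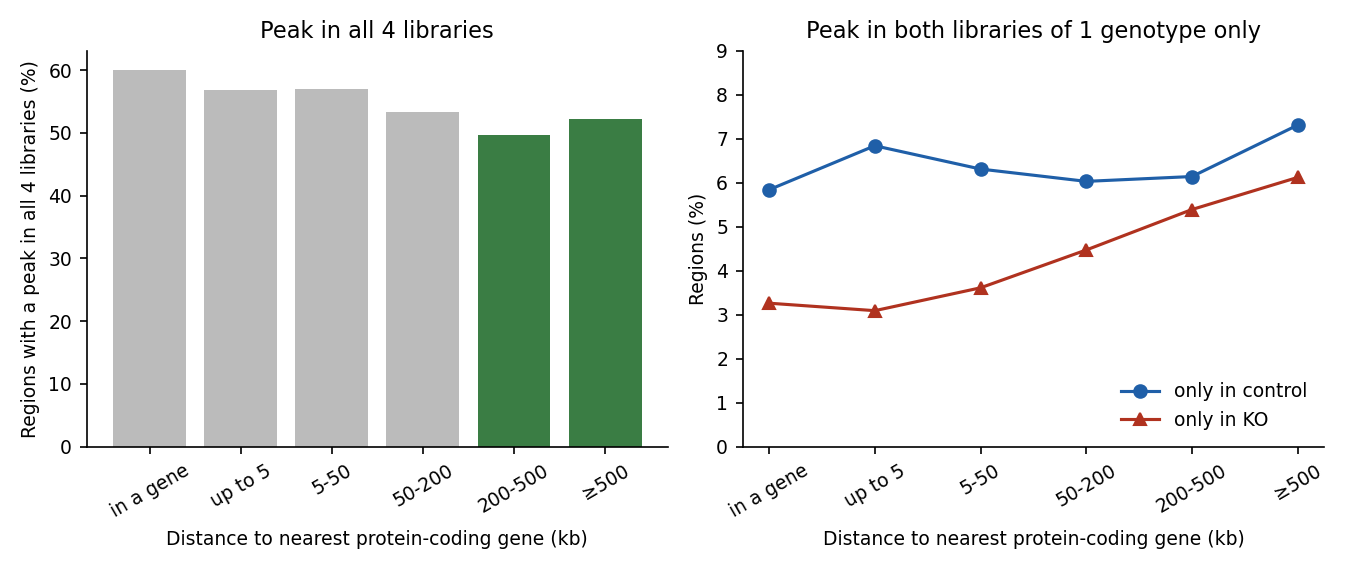
Union regions by distance to the nearest protein-coding gene in kb. Left, the percent with a peak in all 4 libraries, with desert classes in green. Right, the percent with a peak in both libraries of 1 genotype and neither of the other. The share in all 4 was 60.1% within genes and 49.7% at 200 to 500 kb, and the share only in KO was 3.26% within genes and 6.12% at 500 kb and over.

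The study asked how loss of Cpt1a changes chromatin accessibility, so presence in deserts was compared by genotype. Of the 3371 regions, 82.9% and 80.1% had a peak in control and 81.4% and 75.0% in KO. The mean was 81.5% ± 2.01 (SD, n = 2) in control and 78.2% ± 4.53 (SD, n = 2) in KO, a difference of −3.32 percentage points that was within the spread of the libraries (exact permutation test, two-sided, p = 0.667). The smallest p this design allows is 0.33. Over all regions the difference was −5.20 points (exact permutation p = 0.33). With the lists brought to equal length, the difference in deserts was −0.69 points (exact permutation p = 1.0). With the 100000 strongest summits of each library, it turned to 4.57 points higher in KO (exact permutation p = 0.33).

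A peak in both control libraries and in neither KO library was found at 214 desert regions (6.35%), near the 6.05% of all regions. The converse, only in KO, was found at 186 (5.52%), against 3.47% of all regions. These counts were set beside those of pairs of libraries that mix the genotypes. Control 1 with KO 1 alone shared 221 desert regions (6.56%, against 4.87% of all regions), control 1 with KO 2 shared 151 (4.48% against 3.78%), control 2 with KO 1 shared 163 (4.84% against 4.25%) and control 2 with KO 2 shared 103 (3.06% against 3.29%). The count of 186 only in KO thus lay among those of the mixed pairs, and 1 mixed pair exceeded the count only in control. The ratio of the desert share to the share of all regions was 1.59 for only in KO, 1.05 for only in control and 0.93 to 1.35 for the mixed pairs. Desert regions were also narrower (median 262 against 330 bp). By class of width, the share only in KO was 10.9% in deserts against 8.83% of all regions under 200 bp. It was 4.16% against 3.21% at 200 to 400 bp and 0.528% against 0.297% at 400 to 800 bp. Only in control, these shares were 10.4% against 12.1%, 6.07% against 7.56% and 1.98% against 1.41%. The share only in KO by distance was 3.26% within genes, 3.09%, 3.61% and 4.47% in the classes up to 200 kb, 5.39% at 200 to 500 kb and 6.12% from 500 kb. Median width over the same classes was 352, 288, 319, 298, 265 and 241.5 bp, and its part in these shares was not tested.

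**Figure D4:**
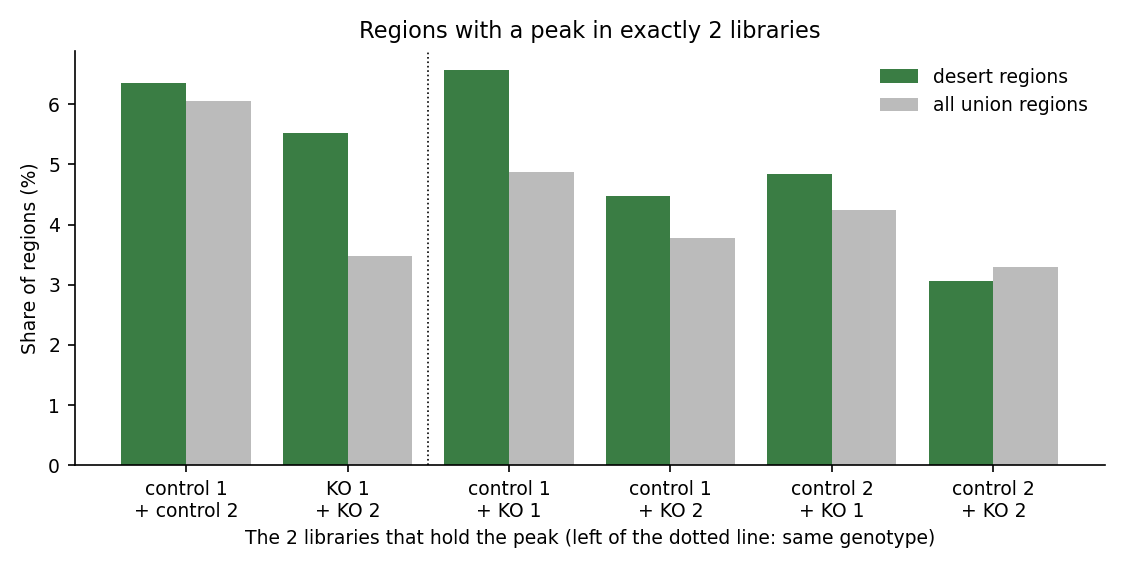
Percent of desert regions (green) and of all union regions (grey) with a peak in exactly the 2 libraries named, with same-genotype pairs left of the dotted line. Only in KO took 5.52% of desert regions and 3.47% of all regions, and the mixed pairs took 3.06% to 6.56% of desert regions.

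These calls rested on weak and narrow peaks and moved with the threshold. The median width was 178 bp only in control and 158.5 bp only in KO, and the median fold was 2.92 and 2.97 in control and 2.93 and 3.26 in KO. When summits were kept from a −log10 q of 5 up, 147 desert regions were held by both controls alone and 30 by both KO libraries alone (11.6% and 2.37%, against 7.02% and 0.807% of all regions). The mixed pairs held 9 to 75 (0.712% to 5.93%, against 0.723% to 3.7% of all regions). The controls alone then held more than any mixed pair, in deserts and over all regions alike. With the 100000 strongest summits of each library, the controls alone held 53 and the KO libraries alone 83 (4.71% and 7.37%, against 2.75% and 3.11% of all regions). The mixed pairs then held 22 to 44 (1.95% to 3.91%, against 1.89% to 2.28% of all regions). Both genotype pairs thus lay above every mixed pair, in deserts and over all regions alike.

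The strongest region only in KO lay between Agtr1b and Tbl1xr1 (chr3:20655387-20655595), with folds of 8.80 and 8.55. The next lay beside Ets1 (chr9:33247033-33247219), a transcription factor of lymphocytes, with 4.89 and 6.11. The other 2 lay between Abca13 and Vwc2, with 5.21 and 4.48, and in the immunoglobulin heavy chain locus, with 5.54 and 4.48. Of the 4 strongest only in control, 3 lay in the T cell receptor alpha locus, and the first of these (chr14:53159115-53159288) had folds of 7.47 and 8.30. The fourth lay between Cxcl12, the ligand that holds stem cells in the marrow, and Zfp637 (chr6:117393553-117393736), with 4.87 and 5.34.

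Among the 1689 desert regions in all 4 libraries, the percentile of fold was higher in both KO libraries than in both controls at 270 (16.0%), against 14.8% of all such regions. It was lower in both KO libraries at 404 (23.9%), against 22.9%, so in either direction the share in deserts was near the background. The widest gap in each direction was picked out after its values were seen. Between Cldn34c4 and Diaph2 on X, a region (chrX:129304060-129304259) stood at percentiles 20.4 and 10.8 in control and 63.9 and 70.4 in KO. A region between Tle3 and Rplp1 (chr9:61627585-61628189) stood at 68.8 and 64.0 in control and at 7.59 and 10.3 in KO.

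At the deposited threshold, the share only in KO was highest in thinly filled deserts. In intervals with 1 or 2 desert regions, the KO libraries alone held 28 of 270 regions (10.4%) and the controls alone 13 (4.81%). Over all union regions these shares were 3.47% and 6.05%. The KO libraries alone and the controls alone held 7.31% and 5.31% of 999 regions where an interval held 3 to 9. They held 4.12% and 6.94% of 1311 regions at 10 to 29, and 3.92% and 7.21% of 791 regions at 30 or more. The mixed pairs took 1.85% to 7.78% in the thinnest class and 2.40% to 7.96% in the fullest. Median width rose along the same classes, from 203 to 245, 277 and 282 bp, and its part in the shares was not tested.

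**Figure D5:**
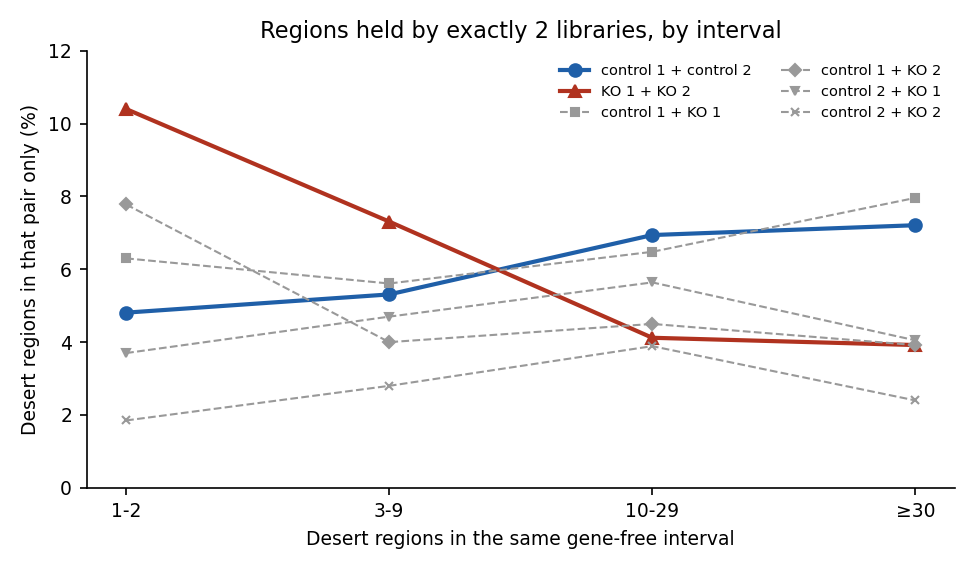
Percent of desert regions with a peak in exactly the 2 libraries named, by how many desert regions share the gene-free interval. The share only in KO (red) is 10.4% in intervals with 1 or 2 regions and 3.92% in those with 30 or more, the share only in control (blue) is 4.81% and 7.21%, and mixed pairs are grey.

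Deserts beside cell adhesion and synapse genes, which are long and sparse, had this pattern too. Their regions are also counted in the classes of interval filling above, so this is not a separate instance. Their median width was 210 bp, against 262 bp over all intervals and 258 bp beside blood regulators. Of their 197 regions, the KO libraries alone held 28 (14.2%), the controls alone 11 (5.58%), and the mixed pairs held 10, 2, 9 and 3. Over all union regions, the KO libraries alone held 3.47% and the controls alone 6.05%. Peaks were called at 74.1% and 75.6% of them in control and at 87.3% and 79.2% in KO, so both KO shares were higher, the reverse of the order of means over all desert regions. Beside blood regulators, the KO libraries alone held 18 of 384 (4.69%), the controls alone 20 (5.21%) and each mixed pair 17 to 24. Beside developmental transcription factors, these counts were 16 of 209 (7.66%), 9 (4.31%) and 8 to 19. From a −log10 q of 5 up, the adhesion and synapse deserts had 76 regions, 5 of them in the KO pair alone, 8 in the control pair alone and 0 to 11 in the mixed pairs, of which control 2 with KO 1 held the most. With the 100000 strongest summits they had 59 regions, 8 in the KO pair alone, 1 in the control pair alone and 1 to 6 in the mixed pairs. Deserts beside blood regulators had 130 regions from a −log10 q of 5 up, 3 of them in the KO pair alone, 22 in the control pair alone and 1 to 9 in the mixed pairs. With the 100000 strongest summits these were 7, 9 and 1 to 8 of 116 regions. Over all regions, the KO pair alone held 0.807% and the control pair alone 7.02% from a −log10 q of 5 up. With the 100000 strongest summits these shares were 3.11% and 2.75%. The balance between the genotypes in these deserts therefore depended on the threshold.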

How the data were processed

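ATAC-Seq was done on 2 control and 2 KO libraries, and the authors deposited a peak list per library, called separately. Bowtie2, MACS2 and build mm10 are named in the submitters' processing notes, without versions. Per row the authors' lists give the fold (the ratio of the summit to local background), the deposited −log10 p (at least 2.0) and −log10 q, and a deposited display score, which was not used. No list holds read counts, so the depth and its precision are unknown, and the DiffBind and edgeR tests of the study could not be run.

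Lists were joined in pandas 2.3.3 and numpy 2.4.6 (Python 3.11.15), and presence needed 1 bp of overlap. Peaks were not filtered here for repeated sequence, mapping or regions of known artifacts. Distances were taken to 21523 protein-coding records of RefSeq's GRCm38.p6 table, after 341 records (108 protein-coding) that end before the first peak were left out as scaffold positions. A gene missing from that table would make a desert appear longer. Positions are counted from 1. The share of desert regions with a peak was tested by an exact two-sided permutation test over libraries. Merging, distances and clusters were tested on simulated data. The planned motif search of the regions needs a genome and was not run; promoter windows were searched in its place. The members, gene lists and comparisons were chosen with earlier results of these data known.

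Regions named are the 10 strongest (of which 1 is not reported here), the 6 largest clusters, the 10 fullest intervals and the 10 fullest beside a blood regulator, the 4 strongest only in each genotype, 3 on either side of the 200 kb limit and the farthest. Classes of interval filling, lncRNA hosts, promoters and miRNAs were added after the data were seen, as was leaving out both receptor loci. Other alternatives were distance limits of 100 and 500 kb, every gene record as a border, a −log10 q of at least 5, the 100000 strongest summits, lists of equal length, autosomes only, summit windows of 200 bp on each side, coverage of 0.5 of the region, a cluster gap of 50 kb, a replicate block and leaving out each library.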

Additional observations from a re-analysis of the deposited data

How the results depend on the processing

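A limit of 100 kb gave 7933 desert regions, 488 only in control, 393 only in KO and 806 clusters. A limit of 500 kb gave 588 regions, 52.2% of them in all 4 libraries, a median width of 241.5 bp, 43 only in control, 36 only in KO and 41 clusters. With every gene record as a border, 110 regions (55.5% in all 4 libraries, median 237 bp), 4 only in control (3.64%), 7 only in KO (6.36%) and 2 clusters were left. From a −log10 q of 5 up, 1264 regions (52.3% in all 4, median 415 bp), 84 clusters and 30 only in KO (2.37%, against 0.807% of all regions) were left. With the 100000 strongest summits, 1126 regions (55.1% in all 4, median 435 bp) and 66 clusters were left. Of these regions, 53 were only in control (4.71%, against 2.75% of all regions) and 83 only in KO (7.37%, against 3.11%). The difference in the share with a peak reversed to 4.57 points in favour of KO (exact permutation p = 0.33). The cause was not tested. Summit windows widened the median to 531 bp by construction. Coverage of 0.5 gave 28.9% in all libraries and 333 only in control (11.8%, against 11.3% of all regions). Without 1 library, the share in all libraries left was 61.8% to 65.7% and the median width 254.5 to 289 bp. Regions only in control then ranged from 0 to 464 and only in KO from 0 to 316, by construction, since 1 library fewer must lack the peak and a genotype with 1 library left cannot hold 2 peaks. The lower share of desert regions with a peak in KO kept its sign in 10 of 11 other settings. The replicate block is 1 of these and leaves the difference unchanged by construction. Where the sign was kept, the difference ran from −15.1 points from a −log10 q of 5 up and −9.81 at coverage of 0.5 to −0.69 with lists of equal length and −0.52 with summit windows. Without each library it ran from −7.62 points without KO 1 to −1.10 without control 1. In a replicate block the difference was the same −3.32 points, with an exact permutation p of 0.5, the smallest the pairing allows. Same-numbered libraries did not deviate together over the 80271 regions in all 4 libraries (r = 0.01), and the numbers are not stated to mark a shared litter or day. Lists of equal length, autosomes only and leaving out the receptor loci moved no count by over 1.5 times. The order of the genotypes in deserts turned with lists of equal length and with summit windows. With equal lists, the controls alone held 166 (5.37%) and the KO libraries alone 190 (6.14%), against 4.76% and 3.9% of all regions. With summit windows these were 181 (5.38%) and 227 (6.75%), against 5.39% and 3.89%, so the order over all regions did not turn.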
